A study of Zea mays with 6 samples.

Results

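The genes described here are those of maize that build xylan or add acetyl groups to cell wall polymers, read in root tips of plants under negative pressure irrigation (NPI) and under a second regime called DI. They were taken by words in the gene name or product description: irregular xylem or IRX, xylan, trichome birefringence, DUF231, xylosyltransferase, arabinosyltransferase and glucuronosyltransferase, leaving out xyloglucan enzymes and UDP-glycosyltransferases. The rule used no measured value and found 145 of the 45953 genes in the deposited table. The words also take in enzymes that act on other polymers, which are described apart from the xylan genes.

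The study sequenced poly(A) RNA of root tips in 6 libraries, 3 of NPI and 3 of DI. One label field names the DI regime as deficit irrigation and another as drip irrigation, so its abbreviation is kept. The maize line, the plant age and the length of treatment are not given in the labels, nor is whether libraries came from separate plants. The p-values therefore measure the spread between these libraries only, which may be technical.

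Xylan is the main hemicellulose of secondary walls and, in grasses, of primary walls too. Its backbone of xylose is assembled in the Golgi by glycosyltransferases of family 43 (IRX9 and IRX14) together with those of family 47 (IRX10). Glucuronic acid and arabinose are added as side chains, and proteins of the trichome birefringence-like (TBL) family, which carry the domain once called DUF231, add acetyl groups that in Arabidopsis keep xylan soluble and able to bind cellulose. Most knowledge of the single genes comes from Arabidopsis, and the maize genes carry their names by sequence likeness.

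Total counts per library lay between 57792439 and 71957443. NPI-2 stood apart from NPI-1 and NPI-3. In edgeR's quasi-likelihood test 3 of 21902 genes passed an adjusted p of 0.05 with all 6 libraries, and 2593 passed without NPI-2. Markers of the root cap, 4 genes, summed to 28.0, 140.7 and 39.7 FPKM in NPI-1, NPI-2 and NPI-3, against 231.2, 156.5 and 110.5 FPKM in DI-1, DI-2 and DI-3. FPKM is the number of fragments scaled for transcript length and for library size. Of the 4 root cap genes, 3 were tested and all 3 had a lower level in NPI by the fitted difference, and root cap periphery gene2 was at 0 in all NPI libraries. Markers of dividing cells, 31 genes with 20 tested, summed to 152.5, 265.7 and 160.0 FPKM in the NPI libraries and to 226.0, 252.0 and 212.7 FPKM in the DI libraries, and 9 of the 31 were at 0 in every library. The only 2 xylem markers, both XCP1 proteases, together reached 0.25 to 1.52 FPKM in NPI libraries and 0.33 to 5.34 FPKM in DI libraries. Root hair and epidermis markers (18 genes, 1 at 0 in every library) summed to 96.7 to 147.3 FPKM in NPI libraries and 133.0 to 151.7 FPKM in DI libraries. This list was taken by the words root hair, and many of its genes are described as ROOT HAIR DEFECTIVE 3 or its homologs. Whether those genes mark the epidermis was not tested. Phloem markers (11 genes, 1 at 0 in every library) summed to 102.5 to 306.1 FPKM in NPI libraries and 71.0 to 104.5 FPKM in DI libraries. Within this sum, sucrose transporter1, chosen after its values were seen, had 229.2, 73.4 and 36.4 FPKM in NPI and 6.34, 25.3 and 28.8 FPKM in DI. Of the 9 phloem markers tested, 6 had a log2 difference above 0 and 3 below. Endodermis markers (6 genes) summed to 1.87 to 5.80 FPKM in NPI libraries and 0.85 to 4.33 FPKM in DI libraries. In bulk tissue, fewer cells of a type and less RNA per cell cannot be told apart, and the part of these markers in the results that follow was not tested.

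Most of the tested xylan and acetylation genes had higher levels in NPI by the fitted difference. No single one passed the edgeR threshold with all 6 libraries. Of the 145 members, 85 reached a mean of 1 FPKM over the libraries and were tested. Of these 85, the log2 difference of NPI minus DI was above 0 for 66 members (77.6%), against 54.0% of all genes tested. The median log2 difference was 0.50 over the members and 0.07 over all genes tested. Single members ranged from -2.11 to 3.76.

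No member passed an adjusted p of 0.05 in edgeR's quasi-likelihood test with Benjamini-Hochberg adjustment over 21902 genes, in a background of 0.0137% called (0.00913% higher and 0.00457% lower). By the unadjusted p of the same edgeR test, 21 members (24.7%) were under 0.05 with NPI higher, against 12.3% of all genes tested, and 0 with NPI lower, against 8.52%. DESeq2 called 16 members higher (18.8%) in a background of 6.84%, and 0 lower in a background of 4.53%. The limma test on log2(FPKM + 1) called 2 members higher (2.35%) in a background of 0.557%, and 0 lower in a background of 0.279%. With limma-voom 0 members were called, but its share over all genes is not given here, so this count has no background. With upper quartile factors edgeR called the same 2 members higher (adjusted p = 0.0482 for both), in a background of 0.0548%, and 0 lower, in a background of 0.0183%. With no filter, where 109 members were tested, it also called these 2 higher, in a background of 0.0393%, and 0 lower, in a background of 0.0151%. Their edgeR adjusted p rounded to 0.05 there, so these calls lie at the threshold.

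The 3 NPI libraries did not share the difference equally. All 3 NPI values lay above all 3 DI values for 19 members (22.4%), in a background of 13.0%, and below them for 1 member (1.18%), in a background of 13.7%. For another 21 members (24.7%), NPI-1 and NPI-3 lay above all DI values while NPI-2 did not, in a background of 8.66%. NPI-2 was the lowest NPI library for 47 members (55.3%), against 30.0% of all genes tested. Set against the DI mean, the median log2 CPM of the members was 0.65 higher in NPI-1 and likewise 0.65 higher in NPI-3, but only 0.09 higher in NPI-2, where the same medians over all genes tested were 0.02 (NPI-1), 0.01 (NPI-3) and 0.03 (NPI-2). The coefficient of variation was larger in NPI than in DI for 72 members (84.7%), in a background of 79.6%. Without NPI-2, a choice made after seeing the data, 40 members (47.1%) had both NPI values above all DI values, in a background of 21.7%, and 13 (15.3%) had both below, in a background of 32.1%. With a library left out, such counts can only stay or rise. Without NPI-2, edgeR called 22 members higher (25.9%) at an adjusted p of 0.05, in a background of 6.65%, and 0 lower, in a background of 5.19%. Of the 16 members called by DESeq2 and the 22 called by edgeR without NPI-2, 15 were shared. By class, DESeq2 called 9 of 33 tested acetylation members, 4 of 13 of family 43, 0 of 9 of family 47, 2 of 14 glucuronosyltransferases and 1 of 6 DUF579 genes, in a background of 6.84%. Without NPI-2, edgeR called 9 of 33 acetylation members, 5 of 13 of family 43, 3 of 9 of family 47, 3 of 14 glucuronosyltransferases and 2 of 6 DUF579 genes, in a background of 6.65%.

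**Figure D1:**
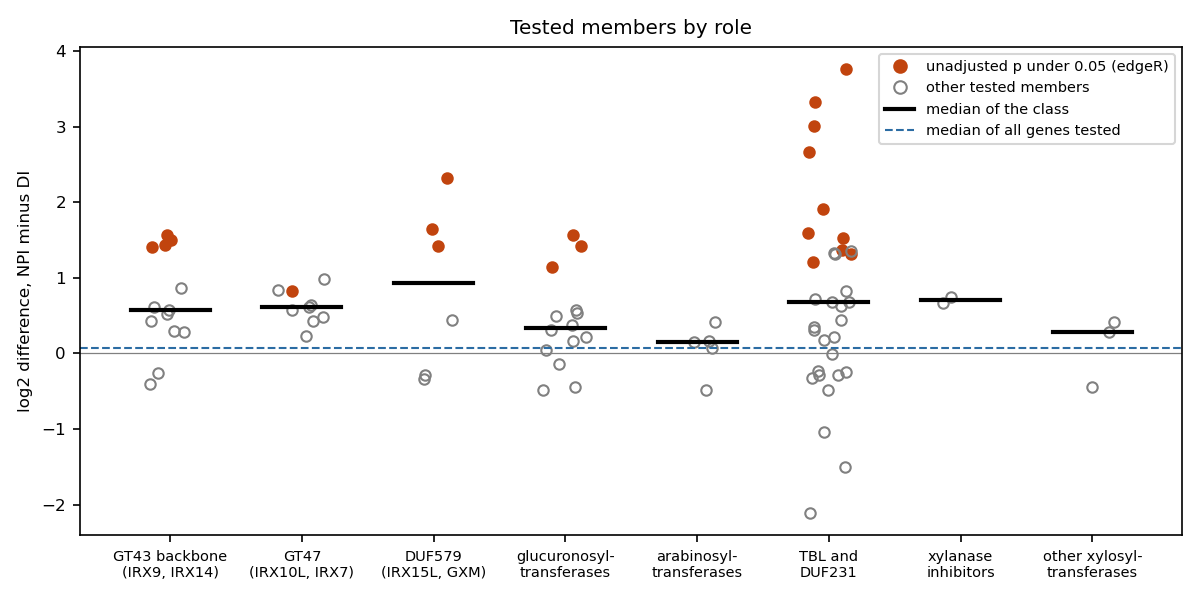
Log2 difference of NPI minus DI in edgeR for the 85 tested members, by role class. Filled points have an unadjusted p under 0.05, open points are the other members, thick bars are class medians and the dashed line is the median of all genes tested, 0.07; every filled point lies above 0.

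**Figure D2:**
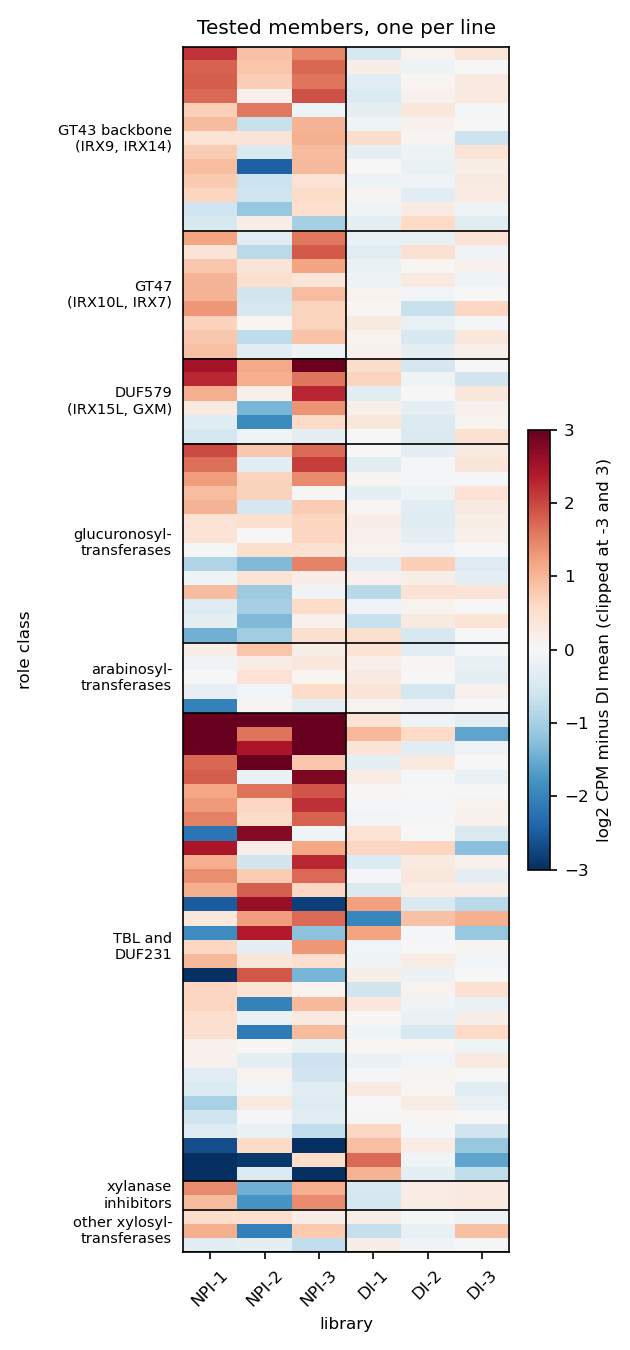
Log2 CPM minus the DI mean for the 85 tested members, one line per member, in the 6 libraries, ordered within each class by the difference between groups. NPI-1 and NPI-3 are mostly above the DI mean, with a median of 0.65 each, and NPI-2 is mixed, with a median of 0.09.

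The family 43 backbone enzymes counted 15 genes, of which 13 were tested and 11 had a log2 difference above 0, with a median of 0.58. Among the 11, IRX14 gene Zm00001d039231, with a mean of 0.94 FPKM in DI, reached the filter of 1 FPKM only through NPI. IRX9, which in Arabidopsis is needed to extend the xylan backbone in secondary walls, is the description of 5 genes. Zm00001d010976 (chromosome 8, 135650671 to 135656323, minus strand) had 28.8, 17.1 and 25.3 FPKM in NPI-1, NPI-2 and NPI-3, against 9.91, 8.26 and 8.64 FPKM in DI-1, DI-2 and DI-3. Each NPI library was above every DI library, with NPI-2 the nearest to them. The means were 23.8 ± 5.98 FPKM in NPI and 8.94 ± 0.864 FPKM in DI (SD, n = 3 each), a log2 difference of 1.5 (SE 0.306, edgeR adjusted p = 0.0874). Without NPI-2 its log2 difference was 1.74 with an edgeR adjusted p of 0.022.

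A second IRX9 gene, Zm00001d035494, chosen after its values were seen, had 17.0, 7.85 and 9.48 FPKM in the NPI libraries and 2.82, 4.40 and 5.02 FPKM in the DI libraries. Its groups did not overlap either, and its log2 difference was 1.57 (SE 0.420, edgeR adjusted p = 0.126). Not all IRX9 genes shared this. Zm00001d047750, chosen after its values were seen, had 14.6, 1.57 and 13.8 FPKM in NPI and 8.0, 7.29 and 9.11 FPKM in DI. There NPI-2 was below every DI library (log2 difference 0.43, SE 0.747, edgeR adjusted p = 0.777). Zm00001d007231, near the filter at 0.63 to 1.6 FPKM in NPI and 1.18 to 1.61 FPKM in DI, had a log2 difference of -0.26 (SE 0.564, edgeR adjusted p = 0.826), which turned to 0.04 without NPI-2.

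IRX9H, the second IRX9-type protein of Arabidopsis, is the description of 5 genes, all tested and all with a log2 difference above 0. Zm00001d024934 had 25.3, 13.4 and 19.9 FPKM in NPI libraries, against 5.91, 8.19 and 8.87 FPKM in DI libraries. All NPI values lay above the DI values, and the log2 difference was 1.44 (SE 0.345, edgeR adjusted p = 0.108). The most abundant IRX9H gene, Zm00001d009539, had 44.8, 21.5 and 37.9 FPKM in NPI and 31.4, 24.9 and 35.0 FPKM in DI, where NPI-2 was the lowest of all 6 libraries (log2 difference 0.28, SE 0.366, edgeR adjusted p = 0.695).

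IRX14, the other family 43 protein of the Arabidopsis backbone complex, is the description of 5 genes. Zm00001d026460 had 53.6, 20.5 and 55.7 FPKM in NPI and 12.7, 19.4 and 20.7 FPKM in DI. NPI-1 and NPI-3 were well above every DI library and NPI-2 lay within the DI range, giving a log2 difference of 1.41 (SE 0.467, edgeR adjusted p = 0.168) that was 1.78 without NPI-2 (edgeR adjusted p = 0.0271). The most abundant IRX14 gene, Zm00001d036543, had 88.1, 43.3 and 91.2 FPKM in NPI and 44.4, 50.6 and 71.5 FPKM in DI. The same library, NPI-2, was below all DI libraries there, and the log2 difference was 0.52 (SE 0.410, edgeR adjusted p = 0.504). Zm00001d005652, at 0.78 to 2.27 FPKM in NPI and 1.44 to 2.88 FPKM in DI, had a log2 difference of -0.41 (SE 0.540, edgeR adjusted p = 0.700).

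The family 47 class held 11 genes, of which 9 were tested and all 9 had a log2 difference above 0, with a median of 0.62. Relative to the DI mean, the class median was -0.33 for NPI-2, whereas it was 0.89 for NPI-1 and 0.86 for NPI-3. IRX10L, a close relative of the Arabidopsis xylan xylosyltransferase IRX10, held the most abundant backbone gene. Zm00001d038905 had 155, 61.6 and 187 FPKM in NPI-1, NPI-2 and NPI-3, against 60.9, 64.3 and 96.4 FPKM in the DI libraries. NPI-1 and NPI-3 exceeded every DI library and NPI-2 lay near the lowest of them (log2 difference 0.98, SE 0.507, edgeR adjusted p = 0.314).

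A pair of IRX10L genes lies within 38.1 kb on chromosome 3 (158610655 to 158612902 and 158645568 to 158648768, plus strand). The first, Zm00001d042276, had 54.8, 26.6 and 133.8 FPKM in NPI and 33.6, 61.1 and 39.2 FPKM in DI, a wide overlap with a log2 difference of 0.84 (SE 0.625, edgeR adjusted p = 0.479) that was -0.11 without NPI-3. Its neighbour Zm00001d042279 had 19.7, 16.5 and 23.2 FPKM in NPI and 10.0, 12.8 and 12.7 FPKM in DI, with no overlap (log2 difference 0.83, SE 0.274, edgeR adjusted p = 0.166). The levels of neighbours with like sequence may share reads. IRX10L Zm00001d009465 had a log2 difference of 0.43 (SE 0.452, edgeR adjusted p = 0.619). The 3 genes described as IRX7, whose Arabidopsis namesake is needed for the sequence at the reducing end of xylan, had log2 differences of 0.23 to 0.64, none with separate groups.

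**Figure D3:**
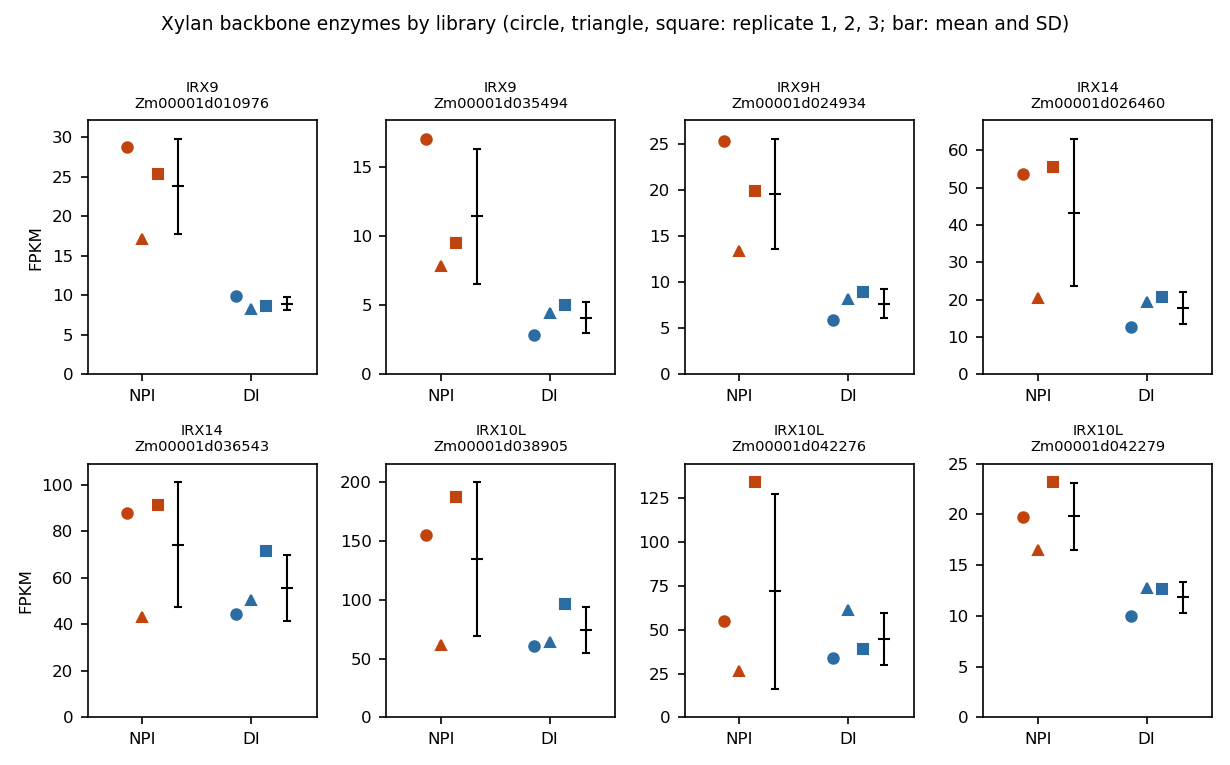
FPKM of 8 xylan backbone genes in each library, NPI left and DI right; symbols mark replicates 1, 2 and 3 and the bar gives the mean and SD of 3 libraries. The triangle, NPI-2, is the lowest NPI point in every panel, and the groups do not overlap for the IRX9 genes shown, IRX9H Zm00001d024934 and IRX10L Zm00001d042279.

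The class of DUF579 proteins held 8 genes, 6 tested, with a median log2 difference of 0.93. Glucuronoxylan 4-O-methyltransferases (GXM) place a methyl group on the glucuronic acid side chains. The 1 tested gene of this kind, Zm00001d023950 (chromosome 10, 31183136 to 31184065, minus strand), had 13.2, 5.82 and 16.5 FPKM in NPI and 3.49, 1.78 and 2.39 FPKM in DI. All NPI values lay above the DI values, and the log2 difference was 2.32 (SE 0.550, edgeR adjusted p = 0.107).

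IRX15-LIKE proteins, whose Arabidopsis relatives affect xylan chain length, were tested as 5 genes, 3 with a log2 difference above 0. Zm00001d014532, the most abundant, had 42.9, 25.7 and 90.4 FPKM in NPI and 17.0, 22.1 and 26.1 FPKM in DI, where NPI-2 lay inside the DI range (log2 difference 1.42, SE 0.525, edgeR adjusted p = 0.198). The scarcer Zm00001d015307 had 3.61, 1.81 and 2.10 FPKM in NPI and 1.25, 0.76 and 0.52 FPKM in DI, without overlap (log2 difference 1.65, SE 0.555, edgeR adjusted p = 0.172). With a mean of 0.843 FPKM in DI, it reached the filter of 1 FPKM only through NPI. Neighbours on chromosome 2, 22.2 kb in span, had differences of opposite sign. Zm00001d002066 had 32.8, 12 and 63.1 FPKM in NPI and 31.9, 24.6 and 30.8 FPKM in DI, a log2 difference of 0.44 (SE 0.595, edgeR adjusted p = 0.704). Zm00001d002067 had a log2 difference of -0.28 (SE 0.621, edgeR adjusted p = 0.830), which was 0.14 without NPI-2, and both genes overlapped between groups. Zm00001d003239, near the filter at 0.92 to 1.41 FPKM in NPI and 1.09 to 1.92 FPKM in DI, had a log2 difference of -0.34 (SE 0.548, edgeR adjusted p = 0.752).

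Glucuronosyltransferases numbered 17, of which 14 were tested and 11 had a log2 difference above 0, with a median of 0.34. GUX enzymes, which add glucuronic acid to xylan, made up 6 of them, 4 tested and all 4 above 0, with a median of 0.26. GUX1 gene Zm00001d038229 had 27.1, 22.8 and 129.6 FPKM in NPI and 42.4, 90.7 and 40.0 FPKM in DI. One library in each group was high, so that its log2 difference of 0.22 (SE 0.760, edgeR adjusted p = 0.893) was -1.19 without NPI-3. GUX2 gene Zm00001d027938, chosen after its values were seen, had 53.7, 15.3 and 65.3 FPKM in NPI and 14.2, 17.96 and 22.7 FPKM in DI. NPI-2 lay with the DI libraries, and the log2 difference of 1.42 (SE 0.568, edgeR adjusted p = 0.221) was 1.85 without NPI-2 (edgeR adjusted p = 0.0271).

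The glucuronosyltransferases with the smallest p do not act on xylan by what is known of their namesakes. GlcAT14B adds glucuronic acid to arabinogalactan proteins, and Zm00001d046399 had 51.1, 38.2 and 51.5 FPKM in NPI and 23.7, 22.2 and 21.6 FPKM in DI, with no overlap and a log2 difference of 1.14 (SE 0.263, edgeR adjusted p = 0.102). Another GlcAT14B gene, Zm00001d039426, had 4.70, 2.57 and 5.73 FPKM in NPI and 3.76, 7.49 and 7.81 FPKM in DI, with overlap (log2 difference -0.44, SE 0.460, edgeR adjusted p = 0.614). Zm00001d043879, named after an animal proteoglycan enzyme, had 6.69, 3.32 and 4.95 FPKM in NPI and 1.73, 1.52 and 2.11 FPKM in DI, again without overlap (log2 difference 1.56, SE 0.403, edgeR adjusted p = 0.118).

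One more tested glucuronosyltransferase had separate groups: PGSIP7 gene Zm00001d026165, chosen after its values were seen, had 13.1, 15.2 and 13.8 FPKM in NPI and 11.5, 8.19 and 11.4 FPKM in DI (log2 difference 0.50, SE 0.243, edgeR adjusted p = 0.291). In the remaining 3 genes that the naming rule took, the groups overlapped. The sphingolipid enzyme gene Zm00001d025865 had 58.2, 22.7 and 44.1 FPKM in NPI and 30.8, 25.1 and 35.6 FPKM in DI (log2 difference 0.54, SE 0.408, edgeR adjusted p = 0.481). PGSIP7 gene Zm00001d047104 had 31.0, 22.9 and 53.8 FPKM in NPI and 39.0, 47.2 and 42.3 FPKM in DI (log2 difference -0.14, SE 0.394, edgeR adjusted p = 0.868), and without NPI-2 the difference was 0.15. A further PGSIP7 gene, Zm00001d029920, had a log2 difference of -0.48 (SE 0.563, edgeR adjusted p = 0.658).

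Acetylation was the largest class, with 55 genes, of which 33 were tested, 23 had a log2 difference above 0, in a background of 54.0%, and 10 had all NPI values above all DI values, in a background of 13.0%. Among these 10, TBL3 gene Zm00001d047737 and TBL20 gene Zm00001d045721 reached the filter of 1 FPKM only through NPI. Their means in DI were 0.24 and 0.997 FPKM. The class median was 0.68, and against the DI mean it was 0.50 (NPI-1), 0.36 (NPI-2) and 0.56 (NPI-3). The summed level of the 55 genes was 370.4, 364.1 and 431.0 FPKM in NPI-1, NPI-2 and NPI-3, against 233.7, 229.4 and 210.1 FPKM in DI-1, DI-2 and DI-3. All 3 NPI sums lay above the DI sums, but not wholly through the same genes. DUF231 gene Zm00001d037250 gave 35.8 FPKM to the NPI-2 sum, against 0.90 FPKM in NPI-1 and 0.66 FPKM in NPI-3. NPI-2 alone of the NPI libraries lay above all DI values for 7 of the 33 tested genes, in a background of 17.8%. For 5 others NPI-1 and NPI-3 lay above all DI values and NPI-2 did not, in a background of 8.66%. For the backbone enzymes the sums were 644.4, 304.5 and 719.0 FPKM in NPI and 309.4, 339.9 and 398.6 FPKM in DI, with NPI-2 the lowest of all 6 libraries. The difference between these sums was not tested.

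The members with the smallest p were 2 genes described as DUF231 family proteins, both on chromosome 4. Zm00001d052318 (187010485 to 187013768, plus strand) had 28.8, 14.2 and 18.4 FPKM in NPI and 2.04, 1.49 and 1.25 FPKM in DI. The lowest NPI library was several-fold above the highest DI library, and the means were 20.5 ± 7.53 FPKM in NPI and 1.59 ± 0.405 FPKM in DI (SD, n = 3 each). Its log2 difference was 3.76 (SE 0.400, edgeR adjusted p = 0.0592). Zm00001d052124 (180352140 to 180355253, plus strand) had 23.9, 14.7 and 20.02 FPKM in NPI and 3.29, 2.09 and 2.3 FPKM in DI, also without overlap. Its means were 19.6 ± 4.61 FPKM in NPI and 2.56 ± 0.641 FPKM in DI (SD, n = 3 each), and its log2 difference 3.01 (SE 0.346, edgeR adjusted p = 0.0613). These are the 2 members that limma on log2(FPKM + 1) called (adjusted p = 0.0292 and 0.0337), and DESeq2 gave adjusted p-values of 8.85e-16 and 2.21e-12. What their proteins acetylate is not given in the files. Another DUF231 gene, Zm00001d010033, chosen after its values were seen, had 12.4, 19.4 and 18.6 FPKM in NPI and 6, 5.98 and 5.54 FPKM in DI, without overlap (log2 difference 1.59, SE 0.261, edgeR adjusted p = 0.0715).

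TBL3, TBL32 and TBL34 acetylate xylan in Arabidopsis, and 7 maize genes carry these names, 4 of them tested. All 4 had a log2 difference above 0 (median 1.35), in a background of 54.0%. In 2 of them all NPI values lay above all DI values, in a background of 13.0%. These 4 genes are too few to set against these shares. TBL3 gene Zm00001d047737 (mean 2.2 FPKM in NPI and 0.24 FPKM in DI) reached the filter of 1 FPKM only through NPI. So did TBL34 gene Zm00001d023225 (2.09 and 0.887 FPKM), chosen after its values were seen. For these genes the filter itself favoured a difference above 0. TBL32 gene Zm00001d034620 (chromosome 1, 298045580 to 298050390, plus strand), the most abundant acetylation gene, had 83.8, 49.0 and 92.5 FPKM in NPI and 29.0, 31.3 and 33.3 FPKM in DI. All NPI libraries were above all DI libraries (log2 difference 1.37, SE 0.347, edgeR adjusted p = 0.115). Its neighbour Zm00001d034621, also TBL32 and starting 298057974 on the same strand, had 30.1, 10.9 and 61.6 FPKM in NPI and 11.04, 18.4 and 16.01 FPKM in DI. There NPI-2 was the lowest of all 6 libraries (log2 difference 1.32, SE 0.634, edgeR adjusted p = 0.283). TBL3 gene Zm00001d047737, chosen after its values were seen, had 2.32, 0.64 and 3.64 FPKM in NPI and 0.37, 0.30 and 0.05 FPKM in DI (log2 difference 3.32, SE 0.966, edgeR adjusted p = 0.141).

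TBL20 gene Zm00001d044033 had 58.0, 35.5 and 83.6 FPKM in NPI and 37.0, 40.7 and 41.4 FPKM in DI, with NPI-2 below every DI library (log2 difference 0.68, SE 0.387, edgeR adjusted p = 0.353). It lies with a second TBL20 gene and a TBL39 gene within 187.6 kb on chromosome 3, and the neighbours had other profiles. TBL20 gene Zm00001d044031 had 0.33, 18.3 and 1.52 FPKM in NPI and 5.25, 4.30 and 4.58 FPKM in DI, and TBL39 gene Zm00001d044037 had 18.1, 13.2 and 20.3 FPKM in NPI and 6.95, 9.45 and 5.87 FPKM in DI. The acetylation members with the smallest p among those lower in NPI were TBL10 gene Zm00001d044695 (log2 difference -0.49, SE 0.361, edgeR adjusted p = 0.471) and DUF231 gene Zm00001d044987 (log2 difference -0.32, SE 0.229, edgeR adjusted p = 0.466).

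Some acetylation genes had their highest level in NPI-2. NPI-2 was above all DI libraries while NPI-1 and NPI-3 were not for 12 of the 85 members (14.1%), in a background of 17.8%. Over the 85 members this pattern was thus no more frequent than over all genes tested, but the classes differed. It was found in 7 of 33 tested acetylation genes, 4 of 5 arabinosyltransferases and 1 of 14 glucuronosyltransferases. The other tested classes had 0. The difference between classes was not tested. The genes named here were chosen for this pattern after their values were seen. DUF231 gene Zm00001d037250 had 0.90, 35.8 and 0.66 FPKM in NPI-1, NPI-2 and NPI-3, against 12.5, 4.18 and 3.06 FPKM in DI-1, DI-2 and DI-3. Its neighbour on chromosome 6, Zm00001d037249, had 0.22, 7.91 and 0.86 FPKM in NPI and 1.46, 1.11 and 0.79 FPKM in DI, and Zm00001d044784 had 0.96, 21.1 and 1.37 FPKM in NPI and 8.52, 3.78 and 1.66 FPKM in DI. In each of the 3, NPI-2 was the highest library. The summed root cap markers were higher in NPI-2 than in NPI-1 and NPI-3 as well, as were 3 of the 4 genes; root cap periphery gene2 was at 0 in all 3. Whether the 2 patterns have a common source was not tested.

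**Figure D4:**
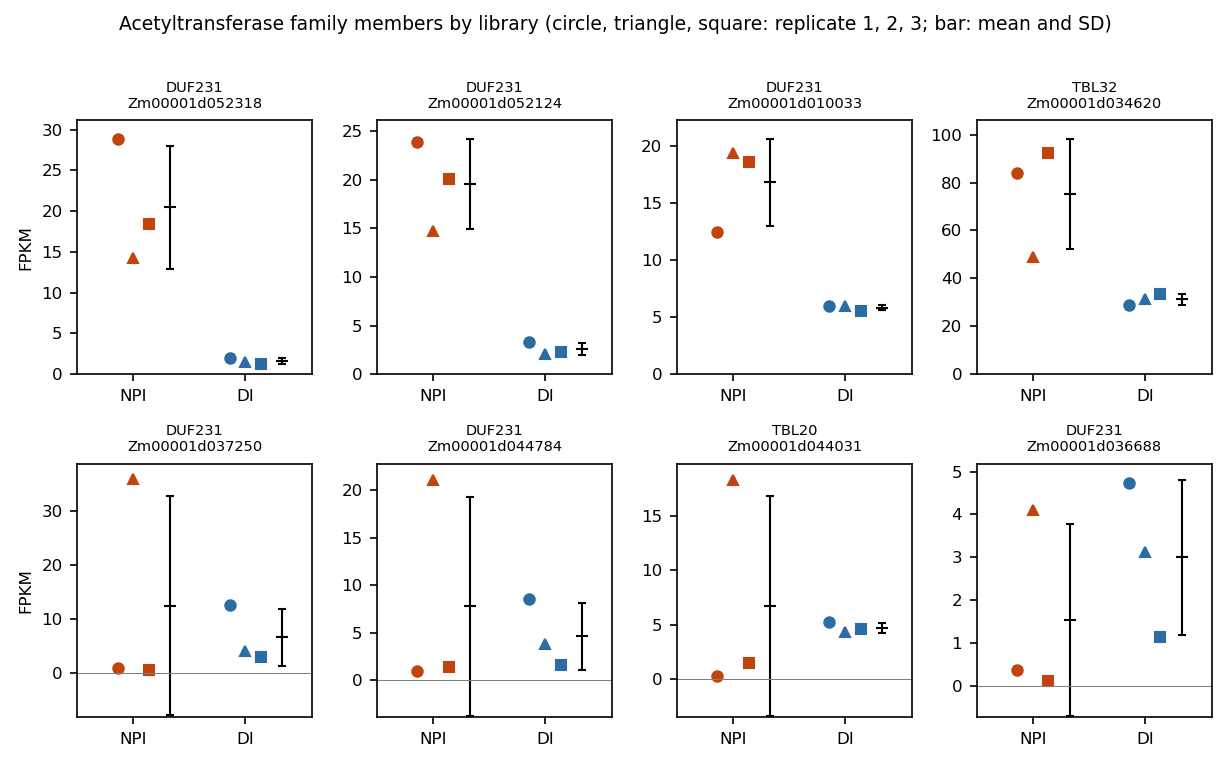
FPKM of 8 TBL and DUF231 genes in each library, NPI left and DI right; symbols mark replicates 1, 2 and 3, the bar gives the mean and SD of 3 libraries, and a bar may reach below 0. The first 4 genes have all NPI libraries above all DI libraries, the next 3 have their highest level in NPI-2, and Zm00001d036688 was listed at 0.38, 4.11 and 0.11 FPKM in NPI and 4.74, 3.12 and 1.14 FPKM in DI.

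The arabinosyltransferases, 6 genes with 5 tested, had a median log2 difference of 0.15, and no member had separate groups. By name none of the 5 adds arabinose to xylan: RRA3 and XEG113 act on extensins and ARAD1 on pectic arabinan in Arabidopsis. ARAD1 gene Zm00001d021821 had a log2 difference of 0.41 (SE 0.325, edgeR adjusted p = 0.508). The most abundant RRA3 gene, Zm00001d021974, had 8.55, 10.9 and 13.6 FPKM in NPI and 13.9, 7.74 and 11.5 FPKM in DI (log2 difference 0.07, SE 0.346, edgeR adjusted p = 0.928), and RRA3 gene Zm00001d029611 a log2 difference of 0.16 (SE 0.264, edgeR adjusted p = 0.763). XEG113 gene Zm00001d033094 had 1.43, 7.02 and 4.36 FPKM in NPI and 6.54, 5.89 and 6.03 FPKM in DI, with NPI-1 the lowest of all (log2 difference -0.49, SE 0.504, edgeR adjusted p = 0.606).

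Xylanase inhibitor proteins, which bind xylanases of microbes, had the highest levels of any member. Zm00001d037656 had 1042, 164.6 and 752 FPKM in NPI-1, NPI-2 and NPI-3, against 293.4, 497.4 and 484.0 FPKM in DI-1, DI-2 and DI-3 (log2 difference 0.74, SE 0.667, edgeR adjusted p = 0.556). Zm00001d018965 had 373.1, 62.8 and 463.1 FPKM in NPI and 137.5, 245.3 and 243.4 FPKM in DI (log2 difference 0.66, SE 0.710, edgeR adjusted p = 0.624). In both genes NPI-1 and NPI-3 were above every DI library and NPI-2 was below every DI library.

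The remaining xylosyltransferases act on other molecules. Beta-2-xylosyltransferase, an enzyme of N-glycans, was represented by Zm00001d031415 with a log2 difference of 0.42 (SE 0.298, edgeR adjusted p = 0.461). MGP4, an enzyme of the pectin rhamnogalacturonan II in Arabidopsis, was represented by Zm00001d038076, with 1.03, 1.20 and 0.69 FPKM in NPI and 1.49, 1.3 and 1.27 FPKM in DI. It was the only tested member with all NPI values below all DI values (log2 difference -0.44, SE 0.330, edgeR adjusted p = 0.485). With a mean of 0.973 FPKM in NPI, it reached the filter of 1 FPKM only through DI. Zm00001d052492 had a log2 difference of 0.28 (SE 0.827, edgeR adjusted p = 0.873).

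A further 60 members were not tested, of which 36 were at 0 FPKM in all 6 libraries. They included all 23 genes described as CESA4 or IRX5-like, a cellulose synthase name that the rule took in: 21 of the 23 were at 0 in every library and the highest value of any was 0.54 FPKM. Only 2 untested members exceeded 1 FPKM in any library, TBL12 gene Zm00001d015010, with 1.29 FPKM in NPI-3, and the family 10 glycosyl hydrolase gene Zm00001d039958, with 1.23 FPKM in DI-1. The members shared annotation: 61 of the 85 tested members (71.8%) carry the Golgi apparatus term, against 2.49% of all genes tested. All 55 acetylation genes carry the O-acetyltransferase term. Such terms may rest on the same gene families as the descriptions by which the rule chose the members, so they are not a separate finding. The secondary wall biogenesis term marks 32 members, of which 25 were tested. Of these 25, 22 had a log2 difference above 0, in a background of 54.0%, and the median was 0.62. Library NPI-2 did not share this: its median against the DI mean was -0.32, while NPI-1 had 0.93 and NPI-3 had 1.19. All NPI values exceeded all DI values for 7 of the 25, in a background of 13.0%. For 12 others only NPI-2 failed to exceed every DI library, in a background of 8.66%. The members lie on all 10 chromosomes, and 23 of them fall into 10 clusters with neighbours closer than 200 kb.

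Genes that supply the sugar donors had a smaller median difference than the members. Enzymes that make UDP-sugars, among them the donors of xylose and glucuronic acid, numbered 35 with 21 tested, of which 12 had a log2 difference above 0 (median 0.18) and 0 passed the edgeR threshold. By unadjusted p under 0.05 in edgeR, 1 was higher and 1 lower, in backgrounds of 12.3% and 8.52%, and DESeq2 called 1 higher, in a background of 6.84%. Neither count of higher genes stands above its background. UDP-glucuronic acid decarboxylase, which makes UDP-xylose, had the smallest p: Zm00001d009908 had 29.6, 23.4 and 28.1 FPKM in NPI and 11.6, 8.52 and 10.2 FPKM in DI, without overlap (log2 difference 1.49, SE 0.269, edgeR adjusted p = 0.0728). Zm00001d041679 of the same list had 30.3, 27.7 and 17.98 FPKM in NPI and 42.8, 35.9 and 39.3 FPKM in DI, with all NPI libraries lower (log2 difference -0.59, edgeR adjusted p = 0.240).

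The acetyl supply list held 16 genes, 9 tested, with 6 above 0 (median 0.37), 0 past the edgeR threshold, and 3 higher and 1 lower at an unadjusted edgeR p under 0.05, in backgrounds of 12.3% and 8.52%. DESeq2 called 2 of them higher, in a background of 6.84%. It includes REDUCED WALL ACETYLATION (RWA) proteins, which bring acetyl groups into the Golgi, and a few genes of other function that its words matched. RWA2 gene Zm00001d047600 had 58.4, 60.8 and 51.0 FPKM in NPI and 25.2, 19.0 and 21.1 FPKM in DI. All NPI libraries, NPI-2 included, lay above the DI libraries (log2 difference 1.44, SE 0.232, edgeR adjusted p = 0.0715). A second RWA2 gene, Zm00001d021793, had 9.23, 5.56 and 10.9 FPKM in NPI and 4.42, 3.76 and 2.84 FPKM in DI (log2 difference 1.32, SE 0.396, edgeR adjusted p = 0.146). RWA3 genes, chosen after their values were seen, differed in direction. Zm00001d004525 had 0.74, 1.90 and 2.48 FPKM in NPI and 6.03, 3.66 and 4.63 FPKM in DI, lower in all NPI libraries. The more abundant Zm00001d009693 had 25.0, 11.4 and 30.5 FPKM in NPI and 11.2, 10.3 and 12.2 FPKM in DI, with NPI-2 inside the DI range. Its log2 difference was 1.10 (SE 0.426, edgeR adjusted p = 0.211), and that of Zm00001d039144 was 0.33 (SE 0.317, edgeR adjusted p = 0.576).

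Of 16 xylan trimming genes, the glycosidases that remove xylose and arabinose, 6 were tested, 4 had a log2 difference above 0 (median 0.21) and 0 passed the edgeR threshold. By unadjusted p under 0.05 in edgeR 1 was higher and 0 lower, in backgrounds of 12.3% and 8.52%, and DESeq2 called 1 higher, in a background of 6.84%. Beta-D-xylosidase 4 gene Zm00001d026415 had 6.10, 27.1 and 7.74 FPKM in NPI and 5.19, 5.05 and 3.79 FPKM in DI (log2 difference 1.54, edgeR adjusted p = 0.172), with NPI-2 far above the others, and Zm00001d002853 a smaller one of 0.67 (edgeR adjusted p = 0.351). Laccases, many of which oxidise lignin precursors, numbered 20 with 12 tested, 9 above 0 (median 0.98) and 0 past the threshold in edgeR, with 2 higher and 1 lower by unadjusted p under 0.05, in backgrounds of 12.3% and 8.52%. DESeq2 called 2 higher and 1 lower, in backgrounds of 6.84% and 4.53%. Laccase gene Zm00001d052243 had 0.48, 0.35 and 1.00 FPKM in NPI and 16.5, 2.96 and 20.3 FPKM in DI, lower in all NPI libraries (log2 difference -4.33, edgeR adjusted p = 0.0829). With a mean of 0.61 FPKM in NPI, this gene reached the filter of 1 FPKM only through DI. Laccase gene Zm00001d052324 had 3.66, 1.43 and 3.71 FPKM in NPI and 0.69, 0.45 and 1.07 FPKM in DI, higher in all NPI libraries (log2 difference 2.09, edgeR adjusted p = 0.134). With a mean of 0.737 FPKM in DI, that gene reached the filter only through NPI.

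The list for secondary wall cellulose synthases held 7 genes, 5 tested, with 3 above 0 (median 0.20) and 0 past the edgeR threshold, also 0 in either direction at an unadjusted p under 0.05 or by DESeq2, and 1 higher in edgeR without NPI-2. Its words also took in CesA4, CesA7 and CesA8 of the maize numbering, which are not those of secondary walls. CesA10 gene Zm00001d032776, a secondary wall form, had 10.3, 0.74 and 6.56 FPKM in NPI and 3.29, 2.32 and 3.28 FPKM in DI, with NPI-2 below all DI libraries (log2 difference 1.10, edgeR adjusted p = 0.473). For CesA4 gene Zm00001d019149 the log2 difference came to -0.43 (edgeR adjusted p = 0.541). Of 9 genes on the list of secondary wall regulators 3 were tested, with 0 called by edgeR or DESeq2 and 0 at an unadjusted edgeR p under 0.05, and 2 of these are GDP-mannose transporters whose name, GONST1, contains the word searched for: Zm00001d035015 and Zm00001d049725, the first with a difference of 0.53 on the log2 scale (edgeR adjusted p = 0.382), the other with -0.25 (edgeR adjusted p = 0.597). The remaining one, VND6 gene Zm00001d002713, chosen after its values were seen, had 4.02, 6.73 and 3.33 FPKM in NPI and 3.26, 5.33 and 4.62 FPKM in DI, with overlap.

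**Figure D5:**
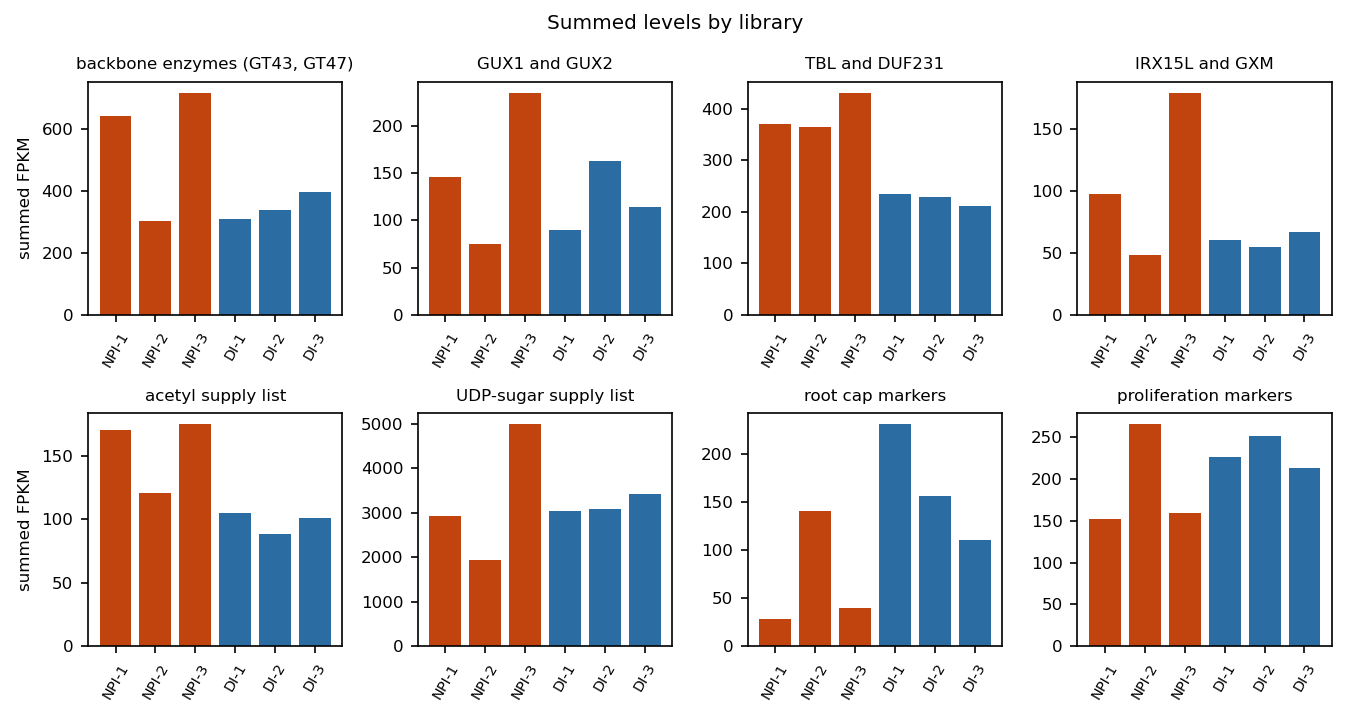
Summed FPKM per library, NPI bars left of DI bars, for 4 member groups, 2 partner lists and 2 marker lists; bars start at 0 and carry no error, since each is 1 library. Backbone sums are low in NPI-2 and high in NPI-1 and NPI-3, acetylation sums are above DI in all 3 NPI libraries, and root cap marker sums are 28.0 and 39.7 in NPI-1 and NPI-3 against 140.7 in NPI-2 and 110.5 to 231.2 in DI.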

How the data were processed

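Poly(A) RNA of 6 maize root tip libraries was sequenced as read pairs, per the labels' protocols, one of whose sentences speaks of an adipose source where every other label gives root. The submitters' processing notes list FastQC 0.10.1, HISAT2 2.0, StringTie 1.3.4 and an edgeR of no stated version. Genome build and strand handling are not given in the sources used here. Reads may therefore be shared between genes that overlap or are nearly identical. The authors deposited estimated counts, all whole numbers, and FPKM per gene and library. Libraries were grouped by title. One description gives DI-2 as repeat 3; the title and column name were used.

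Genes with a mean of at least 1 FPKM were tested with edgeR 4.0.16 in R 4.3.3 on the counts, with TMM factors, two-sided, with adjustment over 21902 genes. Dividing the absolute log2 difference by the root of F gave the SE. Values per library are log2 CPM (prior count 1) less the mean of DI. Alternatives used DESeq2 1.42.0, limma 3.58.1, other factors and filters, a block on replicate number and leaving out libraries one by one. Figures were drawn with matplotlib 3.10.9. The fit was tested on simulated data. Members, role classes and lists were chosen with earlier results of these data known. Named are IRX9, the 2 higher and 2 lower genes of each class with the smallest p, the 3 most abundant of each class and the 2 of each partner list with the smallest p; others were chosen after their values were seen. The reference gene table, of another assembly, was not used.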

Additional observations from a re-analysis of the deposited data

How the results depend on the processing

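The median log2 difference over the members stayed between 0.29 and 0.67 under all alternatives run, and was 0.44 with a trend on transcript length removed, a choice made after seeing the data, against -0.01 for all genes. Genes called over all genes tested, 3 in the main fit, were 16 with upper quartile factors, 18 with no filter, 1 with the replicate block, 2491 with DESeq2, 183 with limma on log2(FPKM + 1), 104 with limma on log2(FPKM + 0.1), and 0 to 2593 with 1 library left out. Members called, 0 in the main fit, were 2 with upper quartile factors, 2 with no filter, 16 with DESeq2, 2 with each limma fit on FPKM, and 0 to 22 with 1 library left out, the 22 without NPI-2. Without NPI-2 (chosen after seeing the data) 37 members had an unadjusted edgeR p under 0.05 with NPI higher, instead of 21, in backgrounds of 18.6% and 12.3%, and 5 with NPI lower, instead of 0, in backgrounds of 16.7% and 8.52%. All NPI values lay above all DI values for 40, instead of 19, in backgrounds of 21.7% and 13.0%, and below for 13, instead of 1, in backgrounds of 32.1% and 13.7%. Counts of separate groups can only stay or rise when a library is left out. The 40 are the 19 together with the 21 where NPI-2 alone of the NPI libraries did not lie above DI. Why NPI-2 differed from the other NPI libraries was not tested. The 6 libraries were not taken as paired: correlations of same-numbered libraries were -0.236, 0.169 and 0.162, 2 of 6 correlated best with their own number, and with the replicate block 0 members were called and their median was 0.38. Zm00001d038229 was -0.30 with the replicate block, -0.22 with limma-voom, -0.30 with limma on log2(FPKM + 1) and -0.31 on log2(FPKM + 0.1), and Zm00001d052492 was -0.06, -0.18 and -0.09 with the block, limma-voom and log2(FPKM + 0.1). With 1 library left out, differences ranged from -0.19 to 0.89 for Zm00001d052492, -1.19 to 0.67 for Zm00001d038229, -0.97 to 0.14 for Zm00001d002067, -0.85 to 0.04 for Zm00001d007231, -0.66 to 0.15 for Zm00001d047104, -0.35 to 0.89 for Zm00001d002066, -0.19 to 0.27 for Zm00001d021974 and -0.11 to 1.26 for Zm00001d042276. Of 832 alternative values of 52 named genes, 774 kept direction and side of the threshold, 41 newly passed it and 17 reversed; none of the 52 passed it in the main fit, so none could lose a call. Members with a mean under 1 FPKM were tested only where the filter was changed.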
